A study of Condylura cristata and Mus musculus with 12 samples.

Results

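The neurotrophin and GDNF family receptors of sensory ganglia were examined as 9 genes: Ntrk2, Ntrk3 and Ngfr, which bind neurotrophins, Ret and its partners Gfra1, Gfra2 and Gfra3, which bind ligands of the GDNF family, and Met and Kit, 2 further receptor tyrosine kinases of sensory neurons. They were taken by symbol, without regard to case, from the read count tables of the star-nosed mole (9 of 33773 genes) and of the mouse (9 of 26125 genes), and each was found in both, listed there as ntrk2, ntrk3, ngfr, ret, gfra1, gfra2, gfra3, met and kit. Poly-A mRNA had been sequenced from the trigeminal ganglion (TG), which supplies the face and, in the mole, the nasal star, and from the dorsal root ganglia (DRG), which supply the trunk and limbs. The moles (Condylura cristata) were wild adult males and the mice adult females of the C57BL/6 strain, so sex cannot be told apart from species, and the labels give no treatment. There were 3 mole libraries per ganglion, 1 of the DRG libraries being combined from 2 individuals, and 2 mouse libraries per ganglion were used. Replicate 1 of each mole ganglion came from another library kit and was read at 76 bases, the rest at 36 or 50 bases. Total counts ran from 8409670 to 92323879 in the mole, where mole DRG 3 was the deepest by far, and from 90548941 to 147076817 in the mouse.

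Neurotrophins and GDNF family ligands are secreted by skin, muscle and other targets, and they keep sensory neurons alive during development and help to set their class. TrkB, the product of Ntrk2, binds BDNF and NT-4, TrkC, the product of Ntrk3, binds NT-3, and p75, the product of Ngfr, binds all neurotrophins and is made by glia as well as neurons. Ret is the signalling receptor for the GDNF family, and the GFRα proteins are anchored to the membrane and present 1 ligand each to it by preference: GFRα1 presents GDNF, GFRα2 neurturin and GFRα3 artemin. Ret is known in nonpeptidergic nociceptors and in some light touch neurons, TrkB and TrkC in touch neurons and TrkC in proprioceptors. Met is the receptor of hepatocyte growth factor and Kit that of stem cell factor, and both are known in subsets of peptidergic nociceptors, Kit also in mast cells and melanocytes.

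Because mole reads were aligned to transcripts of other species, the closest coding stretches of Ntrk2 and Ntrk3 are shown, since a read of 36 bases from such a stretch could be placed on either gene. These are mouse sequences of the GENCODE M21 annotation (GRCm38), read 5′ to 3′ on the coding strand, with the bases that differ in capitals. The Ntrk2 stretch lies in coding exon sequence at chr13:59054404-59054439 (plus strand) and the Ntrk3 stretch at chr7:78250727-78250762 (minus strand).
Ntrk2: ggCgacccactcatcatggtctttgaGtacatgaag
Ntrk3: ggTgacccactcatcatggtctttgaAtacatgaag
The closest 36-base windows of Ntrk2 and Ntrk3 differed at 2 positions, and those of Gfra1 and Gfra2 at 3. Among the other pairs of members compared, the fewest mismatches were 4 for Ret with Met, 6 for Met with Kit and 7 for Ret with Kit. They were 7 for Gfra1 with Gfra3 and 8 for Gfra2 with Gfra3. Trk genes were not compared with Ret, Met or Kit, and Ngfr was compared with no other member. How reads were divided between paralogs in the deposited counts was not tested, and counts per gene do not separate isoforms, such as the TrkB and TrkC forms that lack the kinase.

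In the mole, 4 of the 9 receptors were higher in the DRG than in the TG, and none was higher in the TG. They were Kit, by 12.2-fold, Ret, by 5.98-fold, Gfra3, by 2.59-fold, and Ntrk2, by 2.25-fold. Across all 18078 mole genes tested, 23.5% were called in either direction and 12.9% as higher in the DRG. The median log2 fold change (TG over DRG) was -1.37 over the 9 receptors and 0.11 over all genes. The calls are from edgeR's quasi-likelihood test with Benjamini-Hochberg adjustment over all genes, at a threshold of 0.05. For calls in the TG, 0 was also the count at an unadjusted p under 0.05, by DESeq2 and by limma-voom. Levels are given as CPM, the read counts scaled to library size with TMM factors, and in whole ganglia fewer cells of a type and less RNA per cell cannot be told apart.

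Whether the mouse shows the same differences depends on the library labels, which one group of genes ran against. Hox genes, which set position along the trunk and are largely silent in cranial ganglia, were higher in the DRG for 18 of the 24 tested in the mole, with summed levels of 35.6 to 56.0 CPM in TG libraries and 307 to 334 CPM in DRG libraries. In the mouse, 24 of 26 were higher in the libraries labelled TG, with 187 to 215 CPM against 14.9 to 15.6 CPM in those labelled DRG. Hoxd1, outside that list and named after its values were seen, lay the way of the labels, at -0.58 ± 0.34 in the mouse (TG over DRG, log2 scale, edgeR adjusted p = 0.456), against -2.11 ± 0.35 in the mole (edgeR adjusted p = 0.0113). The mouse groups are therefore called by their labels throughout, and each mouse direction below, and each difference between the species, rests on those labels. The tissue itself is marked in both species: all 14 sensory neuron markers were measured in every group, with summed levels from 19504 to 53704 CPM.

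**Figure D1:**
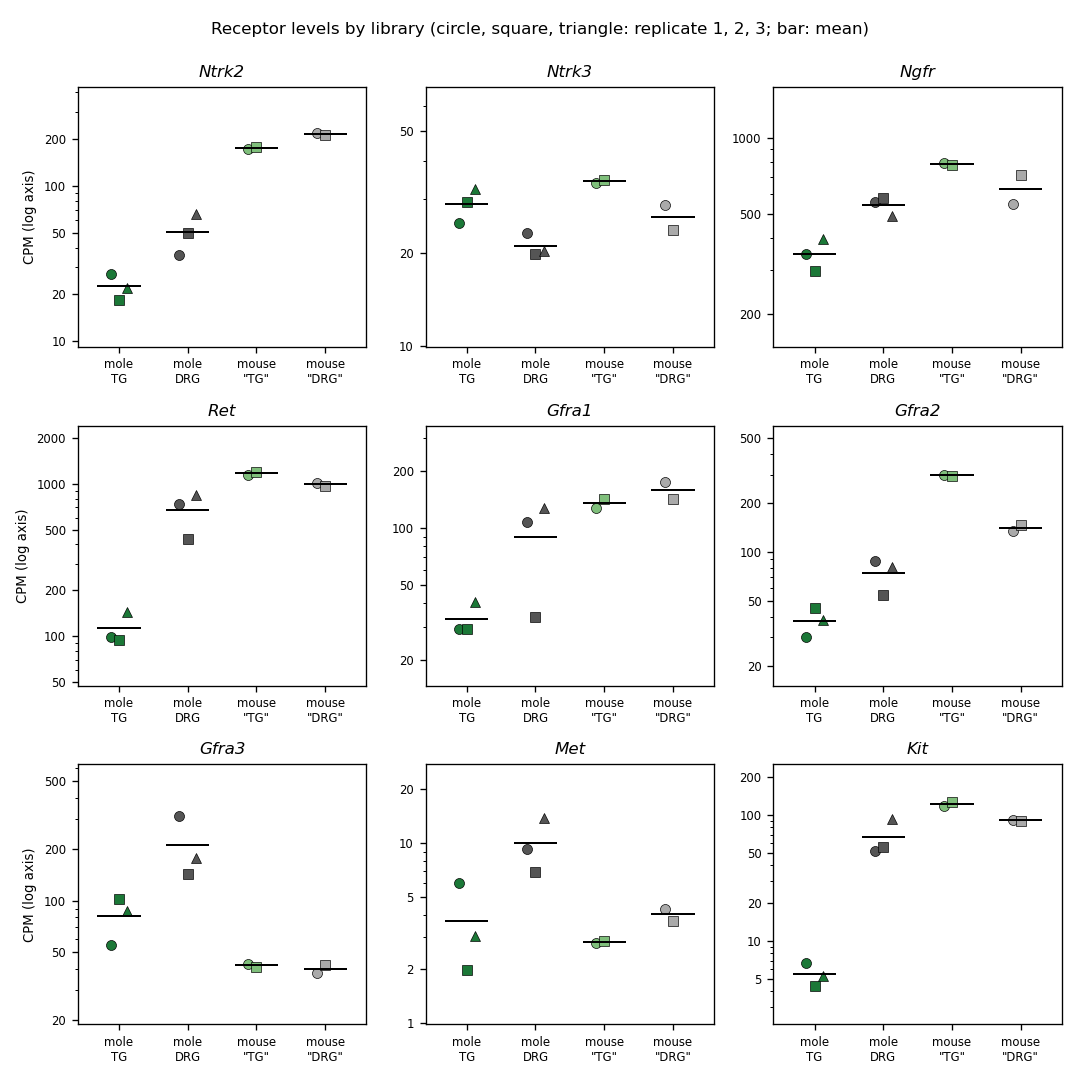
Level of each of the 9 receptors in CPM (log axis) in the mole TG and DRG (3 libraries each) and in the mouse libraries labelled TG and DRG (2 each), with a bar at each group's mean. Kit and Ret of the mole show the widest gap between ganglia, from 4.37 to 6.72 CPM against 52.0 to 93.4 CPM for Kit.

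Ret, the signalling receptor of the GDNF family, stood at 98.4, 95.1 and 145 CPM in mole TG 1, 2 and 3, and at 740.3, 434 and 847 CPM in mole DRG 1, 2 and 3. Every DRG library lay well above every TG library. The log2 fold change was -2.58 ± 0.34 (SE, n = 3 per ganglion, edgeR adjusted p = 0.00814). The call held in 19 of 19 alternative settings, with log2 fold changes from -2.88 to -2.40. In the mouse, Ret stood at 1139 and 1202 CPM in the libraries labelled TG, against 1017 and 964 CPM in those labelled DRG, with a log2 fold change of 0.24 ± 0.12 (n = 2 per label, edgeR adjusted p = 0.400). The mouse libraries did not overlap, but the difference did not pass the test. In the joint fit of both species the mole's TG-over-DRG log2 fold change was lower than that of the mouse by 3.30 on the log2 scale (-3.30 ± 0.48, edgeR adjusted p = 0.00256). The mouse gene lies at chr6:118151745-118197718 on the minus strand of GRCm38.

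Gfra3, the artemin receptor, had the largest standard error of the receptors called in the mole. Its levels were 54.7, 103 and 87.5 CPM in the 3 TG libraries and 315, 143 and 178 CPM in the 3 DRG libraries. Every DRG library was above every TG library, the nearest pair being mole DRG 2 and mole TG 2. The log2 fold change was -1.37 ± 0.38 (n = 3 per ganglion, edgeR adjusted p = 0.0391). It passed in 10 of 19 alternatives and in 1 of the 6 that left out 1 library, the one without mole DRG 2 (-1.66, adjusted p = 0.0215), while the adjusted p was 0.0513 without mole TG 1, 0.0940 without mole TG 2, 0.105 without mole TG 3, 0.114 without mole DRG 1 and 0.0893 without mole DRG 3. In the 4 TruSeq libraries alone the log2 fold change was -0.82 (adjusted p = 0.0906). With an offset for GC content, for which 75.6% of the mole genes tested had a value, it was -2.29. That offset, a check void over all mole genes, counts among the 10 without and with the replicate block. In the mouse, Gfra3 stood at 42.7 and 41.2 CPM in the libraries labelled TG, against 37.8 and 41.8 CPM in those labelled DRG. These overlapped, and the log2 fold change was 0.08 ± 0.15 (n = 2 per label, edgeR adjusted p = 0.844).

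Gfra2, the neurturin receptor, was the 1 receptor called in the mouse. It stood at 300.0 and 292 CPM in the libraries labelled TG, against 136 and 147 CPM in those labelled DRG. The groups were far apart and each pair was close, giving a log2 fold change of 1.07 ± 0.12 (n = 2 per label, edgeR adjusted p = 0.0181), or 2.10-fold higher in libraries labelled TG. Over all 21394 mouse genes tested, 2.33% were called and 1.12% were called as higher in libraries labelled TG. The value stayed between 1.01 and 1.13 in all 15 alternatives, but the adjusted p was 0.201 without the library labelled TG 1 and 0.187 without that labelled TG 2. No receptor was called as higher in mouse libraries labelled DRG by edgeR, DESeq2 or limma-voom, with 1 (Ntrk2) at an unadjusted p under 0.05 in edgeR and 1.21% of all genes called in that direction.

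In the mole Gfra2 lay the other way. Its levels were 30.1, 45.4 and 37.95 CPM in the TG and 88.1, 54.3 and 81.1 CPM in the DRG. The ganglia did not overlap, and the log2 fold change was -0.98 ± 0.30, just short of the threshold (n = 3 per ganglion, edgeR adjusted p = 0.0502). It passed in 7 of 19 alternatives, among them the 1 without mole DRG 2 (-1.23, adjusted p = 0.0222). Also among the 7 were the GC offset without (adjusted p = 0.0281) and with the replicate block (0.0428), a check void over all mole genes. The difference between the species was itself past the threshold, at -2.53 ± 0.42 (edgeR adjusted p = 0.00402), and it held in 16 of 16 alternatives that kept the mouse labels as they stand. With the mouse labels exchanged it was -0.23 (edgeR adjusted p = 0.753) and no longer passed. The mouse gene lies at chr14:70890120-70979838 on the plus strand.

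Gfra1, the GDNF receptor, was the 1 mole receptor whose ganglia overlapped. It stood at 29.3, 29.3 and 40.7 CPM in the TG and at 108, 33.7 and 128 CPM in the DRG, so that mole DRG 2 sat among the TG libraries and the other DRG libraries lay well above them. The log2 fold change was -1.44 ± 0.48 (n = 3 per ganglion, edgeR adjusted p = 0.0635), and without mole DRG 2 it was -1.90 (adjusted p = 0.00791). Mole DRG 2 also stood apart over all genes, with rank correlations of 0.919 and 0.900 to the other DRG libraries, which had 0.970 between them. In the mouse, Gfra1 stood at 127 and 142 CPM in the libraries labelled TG, against 174 and 143 CPM in those labelled DRG. These nearly touched, and the log2 fold change was -0.23 ± 0.15 (n = 2 per label, edgeR adjusted p = 0.505).

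Set against Ret in the same library, all 3 coreceptors made up more in the mole TG than in the mole DRG, since Ret differed more between the ganglia than they did. There were 0.298, 0.308 and 0.282 Gfra1 counts per Ret count in the TG libraries, against 0.146, 0.0776 and 0.151 in the DRG libraries. For Gfra2 the ratios were 0.306, 0.477 and 0.262 in the TG and 0.119, 0.125 and 0.0958 in the DRG. For Gfra3 they were 0.556, 1.08 and 0.605 in the TG and 0.425, 0.329 and 0.210 in the DRG. None of these ranges overlapped, though no test was made of ratios. In the mouse the Gfra2 ratio was 0.263 and 0.243 in libraries labelled TG, against 0.133 and 0.152 in those labelled DRG, whereas the Gfra1 ratio was lower in those labelled TG, at 0.112 and 0.118 against 0.171 and 0.148. The Gfra3 ratio, which was the highest of the coreceptors in every mole library, was the lowest in every mouse library, between 0.0342 and 0.0434. The mole and mouse counts come from different transcript sets, so levels between species are set side by side and were not tested.

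Ntrk2, which encodes TrkB, stood at 27.0, 18.3 and 22.1 CPM in the mole TG and at 36.1, 49.3 and 66.3 CPM in the mole DRG. The ganglia did not overlap, and the log2 fold change was -1.17 ± 0.32 (n = 3 per ganglion, edgeR adjusted p = 0.0383). It passed in 11 of 19 alternatives: among the leave-one-out settings it passed without mole TG 1 (adjusted p = 0.0264) and without mole DRG 2 (0.0321), and missed without mole TG 2 (0.155), mole TG 3 (0.118), mole DRG 1 (0.0685) and mole DRG 3 (0.137). With an offset for GC content it was -0.82 (adjusted p = 0.108). In the mouse, Ntrk2 stood at 174 and 178 CPM in the libraries labelled TG, against 218 and 212 CPM in those labelled DRG. These did not overlap, and the log2 fold change was -0.29 ± 0.12 (n = 2 per label, edgeR adjusted p = 0.302). The gene lies at chr13:58806569-59133970 on the plus strand.

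Ntrk3, which encodes TrkC, was the 1 mole receptor whose TG libraries all lay above its DRG libraries. Its levels were 25.0, 29.4 and 32.5 CPM in the TG and 23.3, 19.9 and 20.4 CPM in the DRG. The gap was small, with a log2 fold change of 0.45 ± 0.27 (n = 3 per ganglion, edgeR adjusted p = 0.252). With the offset for GC content, a check void over all mole genes, it was 1.37 (adjusted p = 0.0388), and it did not pass in the other 18 alternatives. The GC content used there is that of mouse transcripts, and the longest Ntrk3 transcript, of 19703 bases, has a coding part of 2592 bases. In the mouse, Ntrk3 stood at 33.8 and 34.7 CPM in the libraries labelled TG, against 28.8 and 23.8 CPM in those labelled DRG, a difference of 0.38 ± 0.17 on the log2 scale (edgeR adjusted p = 0.341). Neither species gave a call for Ntrk3. In the joint fit the difference between species was -0.40 ± 0.38 (edgeR adjusted p = 0.504). Its sign rests on the joint scaling: the separate fits gave 0.069 and RLE factors 0.077, neither past the threshold.

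The balance of both Trk genes within a library differed in the same direction by label in both species. There were 1.08, 0.623 and 0.681 Ntrk2 counts per Ntrk3 count in the mole TG, against 1.55, 2.48 and 3.25 in the mole DRG. In the mouse the ratio was 5.14 in both libraries labelled TG, against 7.57 and 8.91 in those labelled DRG. The ranges did not overlap in either species. No test was made of this ratio, and reads of the similar stretches shown above count in it.

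Ngfr, which encodes p75, was abundant in every library. It stood at 347, 296 and 396 CPM in the mole TG and at 557, 576 and 491 CPM in the mole DRG. The ganglia did not overlap, but the log2 fold change of -0.64 ± 0.23 did not pass (n = 3 per ganglion, edgeR adjusted p = 0.0806). It passed in 3 of 19 alternatives. These were limma-voom (adjusted p = 0.0488) and the GC offset without (-1.58, adjusted p = 0.0158) and with the replicate block, a check void over all mole genes. In the mouse, Ngfr stood at 797 and 783 CPM in the libraries labelled TG, against 544 and 711 CPM in those labelled DRG, a difference of 0.33 ± 0.16 on the log2 scale (edgeR adjusted p = 0.376). In the joint fit the difference between species was -1.44 ± 0.36 (edgeR adjusted p = 0.0195), though this passed in 9 of 16 alternatives. With RLE factors it was -0.98 and did not pass (edgeR adjusted p = 0.0793). Glia also make p75, and their markers moved between the mole ganglia: of 9 markers of satellite glia and nonmyelinating Schwann cells 3 were called as higher in the TG, 1 as higher in the DRG, with summed levels of 7541 to 8516 CPM in TG libraries and 2624 to 3022 CPM in DRG libraries, and none at 0. In the mouse 0 of 9 were called by edgeR or limma-voom, with 4 lower in libraries labelled TG by DESeq2 and 7 at an unadjusted p under 0.05 in edgeR, and sums of 2273 to 2355 CPM in libraries labelled TG and 2706 to 5361 CPM in those labelled DRG. The part of glia in the Ngfr values was not tested.

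Kit, the receptor of stem cell factor, showed the widest difference of the 9 receptors in the mole. Its levels were 6.72, 4.37 and 5.31 CPM in the TG and 52.0, 55.4 and 93.4 CPM in the DRG. These rest on 50, 47 and 61 counts in the TG libraries, and the ganglia were far apart. The log2 fold change was -3.62 ± 0.37 (n = 3 per ganglion, edgeR adjusted p = 0.00756), and the call held in 19 of 19 alternatives, with values from -4.01 to -3.22. In the mouse, Kit stood at 119 and 126 CPM in the libraries labelled TG, against 91.5 and 89.7 CPM in those labelled DRG. These did not overlap, with a log2 fold change of 0.43 ± 0.12 that did not pass (edgeR adjusted p = 0.150). The difference between species, -4.52 ± 0.48, was the widest of the receptors (edgeR adjusted p = 0.000558) and held in 16 of 16 alternatives. The mouse gene lies at chr5:75574916-75656722 on the plus strand.

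Kit is also a receptor of mast cells and melanocytes, and the markers of both were low. The 8 mast cell markers summed to between 9.31 and 11.8 CPM in mole TG libraries and between 4.65 and 10.6 CPM in mole DRG libraries, and edgeR called 0 of the 4 tested, with 1 (higher in the TG) at an unadjusted p under 0.05, 1 by DESeq2 and 2 by limma-voom. The 8 melanocyte markers summed to between 12.5 and 13.5 CPM in mole TG libraries and between 12.1 and 15.2 CPM in mole DRG libraries, with 0 of the 2 tested called by edgeR or limma-voom and 1 by DESeq2, which was also at an unadjusted p under 0.05. No marker of either list was at 0. Kit was 12.2-fold higher in the mole DRG. The part of either cell type in the Kit values was not tested. In the mouse the sums were 7.13 to 8.19 CPM for mast cells in libraries labelled TG and 8.50 to 9.68 CPM in those labelled DRG, and 47.7 to 50.8 and 44.5 to 54.8 CPM for melanocytes.

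Met, the hepatocyte growth factor receptor, was the scarcest of the receptors in raw CPM. It stood at 6.05, 1.95 and 3.05 CPM in the mole TG, from 45, 21 and 35 counts, and at 9.31, 6.93 and 13.8 CPM in the mole DRG. The nearest libraries, mole TG 1 and mole DRG 2, did not overlap, and the log2 fold change was -1.46 ± 0.54 (n = 3 per ganglion, edgeR adjusted p = 0.0841). It passed in 5 of 19 alternatives, among them the 1 without mole TG 1 (-2.07, adjusted p = 0.0245), and was -0.74 with the GC offset (adjusted p = 0.290). In the mouse, Met stood at 2.80 and 2.87 CPM in the libraries labelled TG, against 4.33 and 3.70 CPM in those labelled DRG, a difference of -0.50 ± 0.27 on the log2 scale (edgeR adjusted p = 0.428). Met was thus below its DRG level in the TG in both species by label, without passing the test in either.

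**Figure D2:**
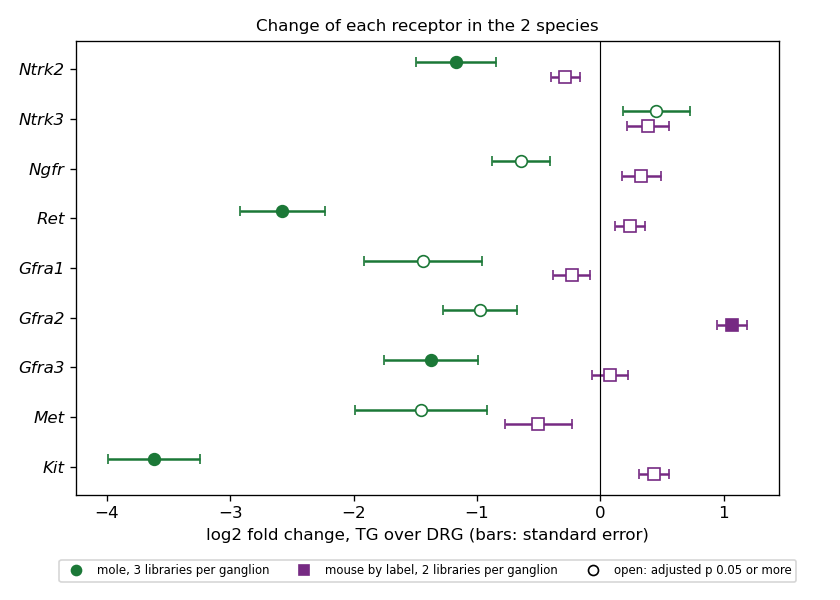
Log2 fold change, TG over DRG, of each receptor in the mole (circles) and by label in the mouse (squares), with standard errors and filled symbols for an edgeR adjusted p under 0.05. In the mole 8 of 9 values are below 0, and in the mouse 3 of 9 are.

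Of the 9 receptors, the DRG libraries all lay above the TG libraries for 7 in the mole, the TG libraries above for 1 (Ntrk3), and 1 overlapped (Gfra1). Among all mole genes tested, the ganglia did not overlap for 44.1%, with the DRG above for 22.4% and the TG above for 21.7%. In the mouse 5 receptors lay above in libraries labelled TG, 3 in those labelled DRG, and 1 (Gfra3) overlapped, where 48.1% of all genes tested did not overlap and 24.2% had the label TG above. The interaction of species and ganglion was called for 5 of the 9 receptors, Kit, Ret, Gfra2, Gfra3 and Ngfr, each with a lower TG-over-DRG fold in the mole, where 17% of all 21580 genes tested were called, 12.6% in that direction and 4.39% in the other. The median interaction was -1.69 over the receptors and -0.16 over all genes. Interaction sizes carry the joint scaling of both species, so they differ from the mole value minus the mouse value of the separate fits. The scaling between species bears on this: RLE factors raised the median over all genes by 0.47 and gave 1570 genes with a higher and 1697 with a lower fold in the mole, against 948 and 2723 with TMM factors, and under RLE factors Kit, Ret and Gfra2 were called among the receptors. The interaction compared mole ganglia with mouse groups as labelled, and for Ntrk2 (-1.35 ± 0.43, adjusted p = 0.0536), Gfra1 (-1.69 ± 0.66, adjusted p = 0.100) and Met (-1.42 ± 0.74, adjusted p = 0.213) edgeR did not call it. With the mouse labels exchanged it was called for 3 receptors, Kit (-3.49), Ret (-2.66) and Ntrk2 (-1.76), where 7.25% of all genes tested were called, 5.77% with a lower fold in the mole and 1.48% with a higher one.

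**Figure D3:**
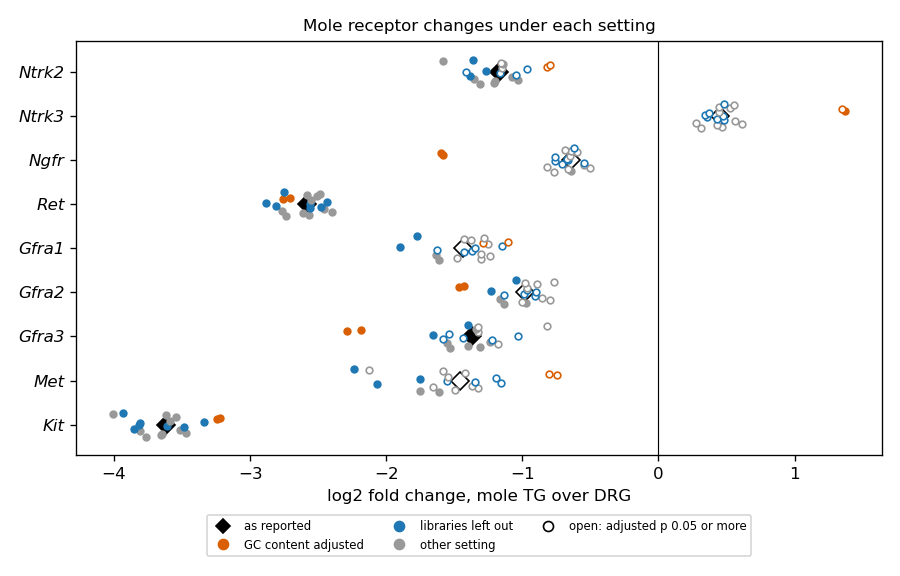
Log2 fold change of each receptor in the mole as reported (diamonds) and under 19 alternative settings (circles), filled where the adjusted p was under 0.05. Ret and Kit are filled at every setting, and values adjusted for GC content are farthest from the rest for Ntrk3 and Ngfr.

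A pair of mole libraries stood apart from their ganglion over all genes, and the receptors were counted again without them. The rank correlation of mole TG 1 was 0.866 and 0.855 with the other TG libraries, which had 0.974 between them, and 0.862 with mole DRG 1, which was made with the same kit. Without mole TG 1 and mole DRG 2, 7 of the 9 receptors were higher in the DRG: Ret (-2.75), Kit (-3.93), Gfra3 (-1.40), Ntrk2 (-1.37), Gfra1 (-1.77), Gfra2 (-1.05) and Met (-2.23), on the log2 scale. In that fit 63.2% of all genes tested were called and 29.9% were higher in the DRG, so the count rose together with that over all genes. With the library kit as a covariate 2 receptors, Ret and Kit, passed, where 22.6% of all genes tested were called and 12.5% were higher in the DRG.

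To compare receptors with each other, CPM was divided by the length in kilobases of the longest mouse transcript of each symbol. The order below rests on this length, which was also used for mole reads aligned to transcripts of other species. On this scale Ngfr was the highest in every group, with 100.5 ± 14.6 CPM per kilobase (SD, n = 3) in the mole TG and 157 ± 12.99 in the mole DRG. In the mole TG, Gfra3 (40.9 ± 12.3), Ret (20.7 ± 5.07), Gfra2 (10.9 ± 2.20), Gfra1 (7.14 ± 1.42), Ntrk2 (2.57 ± 0.50), Ntrk3 (1.47 ± 0.19), Kit (1.04 ± 0.23) and Met (0.54 ± 0.31) followed, all in CPM per kilobase. Neighbours whose libraries overlapped there were Gfra2 and Gfra1, Ntrk3 and Kit, and Kit and Met. In the mole DRG the order was Ngfr, Ret (123 ± 39.3), Gfra3 (106 ± 45.5), Gfra2 (21.5 ± 5.15), Gfra1 (19.3 ± 10.7), Kit (12.8 ± 4.38), Ntrk2 (5.78 ± 1.73), Met (1.47 ± 0.51) and Ntrk3 (1.08 ± 0.09), where Ngfr, Ret and Gfra3 overlapped in turn, as did Gfra2, Gfra1 and Kit, and Met and Ntrk3.

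In mouse libraries labelled TG the order per kilobase was Ngfr (229 ± 2.86, n = 2), Ret (214 ± 8.22), Gfra2 (85.2 ± 1.69), Gfra1 (29.0 ± 2.32), Kit (23.4 ± 1.00), Gfra3 (21.01 ± 0.56), Ntrk2 (20.1 ± 0.36), Ntrk3 (1.74 ± 0.03) and Met (0.42 ± 0.01), with no overlap of neighbours in 2 libraries. In those labelled DRG it was Ngfr (182 ± 34.2), Ret (182 ± 6.93), Gfra2 (40.6 ± 2.28), Gfra1 (34.1 ± 4.79), Ntrk2 (24.6 ± 0.48), Gfra3 (19.9 ± 1.44), Kit (17.3 ± 0.24), Ntrk3 (1.33 ± 0.18) and Met (0.59 ± 0.07), where Ngfr and Ret overlapped. The length of its longest transcript lowers the Ntrk3 level per kilobase. With the mean length of all its transcripts Ntrk3 was 12.1 CPM per kilobase in the mole TG and 8.82 in the mole DRG.

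As shares of the summed counts per kilobase of the 9 receptors, Ngfr took 54.2% ± 6.02 (SD, n = 3) in the mole TG and 36.1% ± 9.07 in the mole DRG. Ret took 11.03% ± 1.44 of the sum in the TG against 27.2% ± 5.66 in the DRG, and Kit 0.57% ± 0.17 and 2.89% ± 0.96. The ranges of all 3 kept the ganglia apart, including 48.0% to 60.0% for Ngfr in the TG against 30.6% to 46.5% in the DRG. Gfra3 held a like share in both, with 22.0% ± 6.30 in the TG and 23.1% ± 6.24 in the DRG. In the mouse Ngfr took 36.7% and 36.2%, Ret 34.3% and 36.2%, and Gfra2 13.6% and 8.09% of the sum in libraries labelled TG and DRG, with Gfra3 at 3.36% and 3.97%. The shares depend on the length: of raw counts with no length Gfra3 took 12.22% and 11.997% in the mole TG and DRG, Ret 16.6% and 38.1%, and Ngfr 51.5% and 32.1%, with the ganglia still apart for Ret, Ngfr and Kit.

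**Figure D4:**
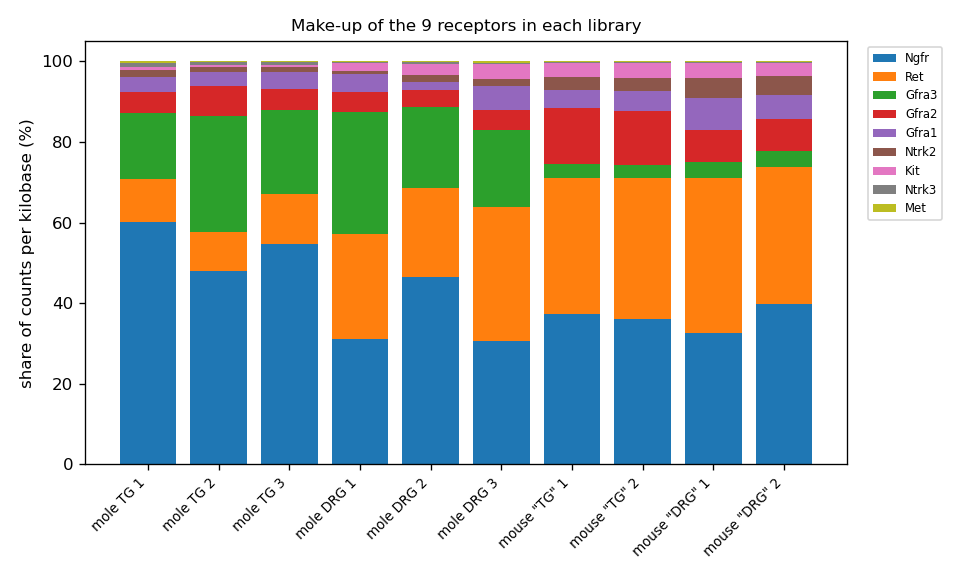
Share of each receptor in the summed counts per kilobase of the 9 receptors (%), 1 bar per library. Ngfr fills 48.0% to 60.0% of the bar in mole TG libraries, and Ret fills 22.1% to 33.3% in mole DRG libraries against 9.74% to 12.6% in mole TG libraries.

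Ligands of these receptors were also measured in the ganglia, and 4 were called in the mole. Bdnf, which encodes the TrkB ligand, stood at 7.09 ± 2.52 CPM (SD, n = 3) in the mole TG and 44.6 ± 29.1 CPM in the mole DRG, a difference of -2.66 ± 0.60 on the log2 scale (edgeR adjusted p = 0.0214). The DRG libraries ranged from 14.5 to 72.5 CPM and lay above the TG range of 5.21 to 9.95 CPM. For Hgf, the Met ligand, the value was -2.26 ± 0.67 (edgeR adjusted p = 0.0460), from 2.12 ± 1.69 and 10.02 ± 4.47 CPM, and Kitl, the Kit ligand, -2.24 ± 0.68 (edgeR adjusted p = 0.0484), from 4.26 ± 3.15 and 19.9 ± 13.3 CPM. These were thus lower in the TG together with the receptors Ntrk2 and Kit.

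Pspn, which encodes persephin, was the 1 ligand called by edgeR as higher in the mole TG, where DESeq2 called 2 and limma-voom 3, at 2.14 ± 0.65 CPM against 0.25 ± 0.14 CPM in the DRG (log2 fold change 3.01 ± 0.74, edgeR adjusted p = 0.0264). Nrtn, the neurturin gene, stood at 3.23 ± 0.99 and 0.59 ± 0.59 CPM (adjusted p = 0.0591), Gdnf at 11.8 ± 5.14 and 3.90 ± 4.10 CPM (0.243), Artn at 1.71 ± 0.08 and 0.88 ± 0.93 CPM (0.402) and Ntf5, the NT-4 gene, at 3.42 ± 1.03 and 2.28 ± 0.37 CPM (0.410), with edgeR's adjusted p in parentheses. Ntf3, the NT-3 gene, was too low to be tested, at 1.64 ± 0.86 and 0.47 ± 0.36 CPM. Of the 9 ligands tested in the mole 3 were thus called as higher in the DRG and 1 as lower there, with a median log2 fold change of 0.58. The calls for Bdnf, Hgf, Kitl and Pspn passed in 12 of 19, 9 of 18, 12 of 19 and 10 of 18 alternatives, each keeping its direction in all of them.

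In the mouse 0 of 10 ligands were called by edgeR, DESeq2 or limma-voom, and 0 were at an unadjusted p under 0.05 in edgeR, with a median log2 fold change of 0.42. Bdnf stood at 28.2 ± 1.53 and 22.8 ± 2.32 CPM (n = 2 each, log2 fold change 0.31 ± 0.17) in libraries labelled TG and DRG, Kitl at 90.4 ± 8.52 and 89.3 ± 17.8 CPM (0.02 ± 0.18) and Hgf at 8.81 ± 1.44 and 6.09 ± 2.87 CPM (0.53 ± 0.36). The other 7 ligands were at or below a mean of 1.24 CPM in both. The interaction with species was called by edgeR for Bdnf (-3.45, adjusted p = 0.0147), Hgf (-3.23, adjusted p = 0.0313) and Kitl (-2.74, adjusted p = 0.0476).

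Among 14 other receptors and coreceptors, 13 were tested in each species, and their median log2 fold change was -0.18 in the mole and -0.27 in the mouse. Lingo1, which encodes a partner of p75, was higher in the mole TG (253 ± 52.4 CPM against 114 ± 18.4 CPM, log2 fold change 1.15 ± 0.27, edgeR adjusted p = 0.0235), as was Sdc3, for a syndecan that binds GDNF family ligands (76.6 ± 26.0 against 37.3 ± 4.54 CPM, 1.04 ± 0.31, edgeR adjusted p = 0.0470). Ncam1, for an alternative GDNF receptor, was higher in the mole DRG (132 ± 44.0 against 344 ± 81.2 CPM, -1.38 ± 0.33, edgeR adjusted p = 0.0252), as was Mst1r, for the relative of Met (8.84 ± 1.98 against 19.7 ± 4.32 CPM, -1.16 ± 0.34, edgeR adjusted p = 0.0465). None of these 4 was called in the mouse, where Sort1, which encodes the p75 partner sortilin, and Sorcs1, its relative, were higher in libraries labelled DRG. Their log2 fold changes there were -0.91 ± 0.14 (edgeR adjusted p = 0.0348) and -0.82 ± 0.14 (edgeR adjusted p = 0.0418). Of 19 alternatives in the mole, Ncam1 passed in 15, Lingo1 in 12, Mst1r in 9 and Sdc3 in 6, each with its direction kept, though Lingo1 fell as low as 0.21 and Sdc3 as 0.036. Of 15 in the mouse, Sort1 passed in 13 and Sorcs1 in 11.

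The remaining members of that list were not called in the mole. The log2 fold changes there were 0.66 for Sort1, -0.18 for Sorcs1, -0.30 for Sorcs2, -0.63 for Sorcs3, -0.65 for Sorl1, 0.79 for Rtn4r, 0.19 for Islr2 and 2.11 for Gfral, and Gfra4 was too low to be tested, at 1.61 ± 0.82 and 0.31 ± 0.32 CPM. In the mouse the values were -0.40 for Sorcs2, 0.03 for Sorcs3, 0.87 for Sorl1, 0.24 for Ncam1, -0.39 for Lingo1, -0.27 for Rtn4r, 1.12 for Mst1r, -0.45 for Sdc3, -0.72 for Islr2 and -0.17 for Gfra4, none past the threshold, and Gfral was not tested.

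**Figure D5:**
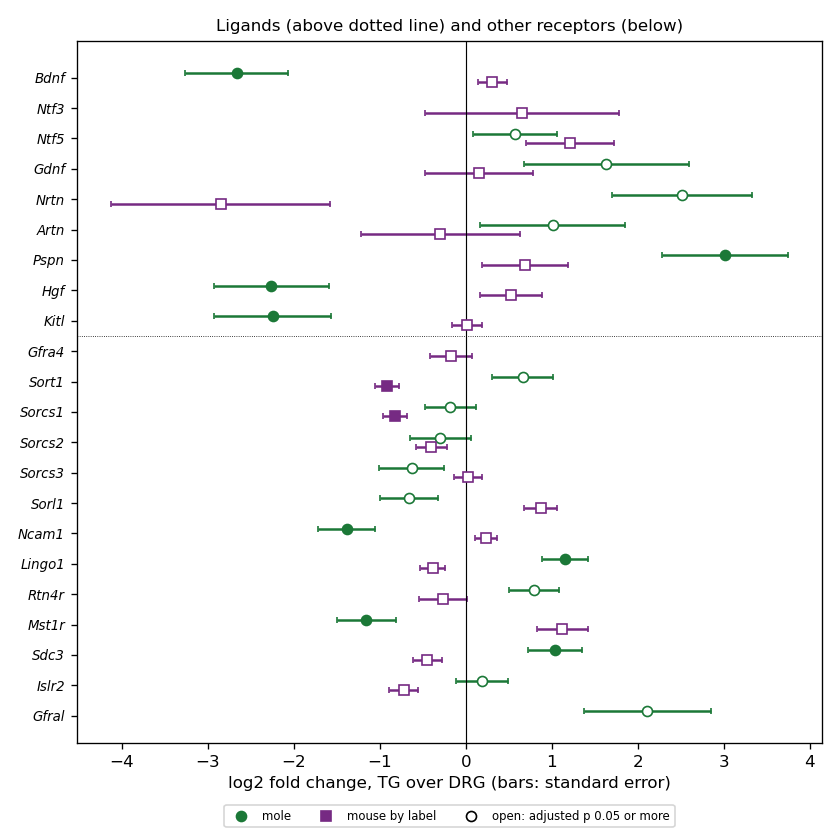
Log2 fold change, TG over DRG, with standard errors, of 9 ligands and 13 other receptors in the mole (circles) and by label in the mouse (squares), filled where the edgeR adjusted p was under 0.05. No symbol is drawn for Ntf3 and Gfra4 of the mole or for Gfral of the mouse, which were not tested. Bdnf, Hgf and Kitl are filled at the left in the mole, between -2.66 and -2.24, and Pspn at the right, at 3.01.

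Downstream of the receptors, 6 of 44 adaptor and signalling genes were called in the mole, 1 higher in the TG (Hras) and 5 higher in the DRG (among them Crk, Nras, Cbl and Cblb, named after their values were seen), with a median log2 fold change of -0.50. That is no more than the share over all mole genes tested, of which 23.5% were called and 12.9% were higher in the DRG. DESeq2 and limma-voom each called 14 of the 44 as higher in the DRG, against 15% and 16.4% of all genes. The most abundant, Mapk3, which encodes the kinase ERK1, stood at 903 CPM in the TG and 900 CPM in the DRG (edgeR adjusted p = 0.990), followed by Maged1, for an adaptor of p75, at 231 and 384 CPM (0.0648) and Dok4, for a substrate of Ret, at 186 and 258 CPM (0.204). Kidins220, for a substrate of Trk receptors, stood at 80.9 and 245 CPM in the mole TG and DRG (edgeR adjusted p = 0.0744), and Kidins220 of the mouse at 479.7 and 432 CPM by label (0.697). In the mouse 1 of 44 was called (Shc1, higher in libraries labelled TG), where 2.33% of all genes tested were. Of 14 feedback inhibitors and induced genes 3 were higher in the mole DRG (Spry4, Spred2 and Etv5) and 0 of 14 were called in the mouse by edgeR or limma-voom, with 1 by DESeq2 and 2 at an unadjusted p under 0.05. The most abundant of that list, Vgf, for a neuropeptide precursor, was not called in the mole (141 and 130 CPM, edgeR adjusted p = 0.723) or in the mouse (104 and 147 CPM by label, 0.617), nor was Dusp6, for a phosphatase of ERK (0.618 and 0.907). Etv5, for a transcription factor induced by Ret signalling, stood at 28.8 and 88.5 CPM in the mole TG and DRG (log2 fold change -1.63 ± 0.45, edgeR adjusted p = 0.0382).

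Of the transcription factors known in the neuron classes that carry these receptors, Maf and Etv1 passed in both species, in opposite directions by label. Maf, known in touch neurons that have Ret, was higher in the mole TG (260 against 95.5 CPM, log2 fold change 1.45 ± 0.24, edgeR adjusted p = 0.0107) and lower in mouse libraries labelled TG (43.2 against 118 CPM, -1.45 ± 0.20, edgeR adjusted p = 0.0275). Etv1, known in proprioceptors, was lower in the mole TG (8.89 against 95.4 CPM, -3.43 ± 0.46, edgeR adjusted p = 0.00814) and higher in mouse libraries labelled TG (109 against 35.8 CPM, 1.61 ± 0.20, edgeR adjusted p = 0.0203). Of 11 such factors the mole had 2 called as higher in the TG and 1 as lower, and the mouse the same counts by label. Pou4f1, Isl1, Tlx3 and Prdm12, the other abundant ones, were called in neither species, with mole log2 fold changes of -0.71, -0.69, 0.70 and -0.52 and mouse values of 0.09, -0.27, -1.52 and 0.29.

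Most markers of nociceptors, like Ret, Kit and Gfra3, were higher in the mole DRG. Of 7 peptidergic markers 5 were higher in the mole DRG, with summed levels of 497 to 636 CPM in TG libraries and 2744 to 4603 CPM in DRG libraries, and of 7 nonpeptidergic markers tested 4 were, with 87.9 to 137 CPM and 457 to 987 CPM. In each list 1 marker had a positive log2 fold change and was not called by edgeR. As higher in the mole TG, DESeq2 and limma-voom each called 1 peptidergic marker, and limma-voom 1 nonpeptidergic marker. Among those called as higher in the DRG, Tac1, for substance P, stood at 134 and 2216 CPM in the mole TG and DRG (log2 fold change -4.04 ± 0.47, edgeR adjusted p = 0.00756), Trpv1, for the capsaicin receptor, at 14.3 and 125 CPM (-3.13 ± 0.33, adjusted p = 0.00756) and Scn11a, for a sodium channel of nociceptors, at 10.2 and 431 CPM (-5.40 ± 0.44, adjusted p = 0.00481). In the mouse 2 of 7 peptidergic and 7 of 8 nonpeptidergic markers were higher in libraries labelled TG, the direction of Gfra2 there, with sums of 1513 to 1715 against 808 to 1107 CPM and of 2239 to 2414 against 972 to 1080 CPM. Unmyelinated touch neuron markers were higher in those libraries for 3 of 3. In the mole all 3 had positive log2 fold changes, and edgeR called 0. Of 9 large myelinated touch neuron markers 1 was higher in the mole TG and 1 in the DRG (median log2 fold change 0.29). Of 5 proprioceptor markers 1 was higher in the mole TG and 1 in the DRG (median -0.70). By label in the mouse, 1 large myelinated marker was higher in DRG libraries and 1 proprioceptor marker in TG libraries. None of these markers was at 0 throughout, and the share of each neuron class in the receptor values was not tested.

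Other cells also differed between the ganglia. Of 9 myelinating Schwann cell markers 6 were higher in the mole TG, with summed levels of 10456 to 11813 CPM against 1918 to 3697 CPM, and 8 were lower in mouse libraries labelled TG, with 4175 to 4234 CPM against 10477 to 13788 CPM. Markers higher in the mole TG numbered 7 of 10 for skeletal muscle, 7 of 13 for the central nervous system (1 lower), 3 of 9 for surface epithelium and 2 of 8 for endothelium (1 lower), and of 14 sensory neuron markers 3 were lower. In the mouse 7 of 10 muscle markers were higher in libraries labelled TG and 4 of 13 central nervous system markers lower. The part of these cells in the receptor values was not tested.

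Across the 10 libraries, with each species centred on its own mean, the log2 CPM of Ret followed that of Kit most closely among the receptors (Pearson r = 0.968), and that of Ntrk2 followed Met (0.914) and Kit (0.910). The genes most like Ret among 8272 compared were Kcna6 (0.998), Inpp4a (0.996) and Iars (0.996), and those most like Kit were Pdcd10 (0.998), Exoc1 (0.995) and Eif4a2 (0.995). For Gfra2 they included Tox2 (0.967) and Prkd1 (0.949), for Gfra3 Daglb (0.979), Alas1 (0.978) and Lonp2 (0.976), and for Gfra1 Atg13 (0.990), Megf10 (0.988) and Clip1 (0.987). For Ntrk2 they were Epb4.1 (0.982), Txndc9 (0.976) and B2m (0.972), for Ntrk3 Kdm4b (0.954), Evi5l (0.942) and Mafg (0.937), for Ngfr Irf2 (0.959), Apex1 (0.942) and Tmeff2 (0.933), and for Met Slc38a1 (0.990), Osbpl1a (0.987) and Cdc37l1 (0.984). These correlations are descriptions over libraries of 4 groups and carry no test, since libraries of a ganglion share most of what drives them. Values were centred by species but not scaled, so the wider mole differences of Ret, Kit, Ntrk2 and Met weigh most in their correlations. In the mouse, log2 fold changes by label were positive for Ret (0.24) and Kit (0.43) and negative for Ntrk2 (-0.29) and Met (-0.50). All 4 were negative in the mole.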

How the data were processed

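The values used are read counts per gene, deposited by the authors as whole numbers for 6 mole and 4 mouse libraries. Per the methods, the authors aligned reads with Stampy 1.0.11 (substitution rate 0.03), mole reads to human, then dog, then mouse mRNAs, and summed counts over HomoloGene (build 64) homologs. Mouse reads went to mouse mRNAs. The authors' lists of called genes were not used, and 2 mouse samples, 1 per ganglion, were not analysed here.

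The quasi-likelihood test of edgeR 4.0.16 (R 4.3.3), after filterByExpr at a minimum count of 10 and TMM scaling, was applied within each species and, over the 24049 symbols in both tables, as an interaction of species and ganglion. Adjusted p-values are Benjamini-Hochberg over all genes tested, with a threshold of 0.05. The scripts were tested on simulated data. With 2 or 3 libraries per group, p-values reflect the spread between those libraries, which is not that between animals alone. In the mole that spread also holds differences of library kit and read length, and a DRG library was combined from 2 individuals. Read counts are not independent molecules, so depth covers counting error only.

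Alternatives were DESeq2 1.42.0, limma-voom (limma 3.58.1), RLE and upper-quartile factors, filters, thinned counts, each library left out, a replicate block, a GC offset (loess, span 0.3, GC of GENCODE M21 mouse transcripts on GRCm38), the kit as a covariate, TruSeq libraries alone, and mole TG 1 and DRG 2 left out. A crossed mouse block, exchanged mouse labels in the interaction and coding lengths were added after seeing the data. Of mole genes tested 75.6% had a GC value, and of mouse genes 80.3%, so the mole GC check is void over all genes, as fewer than 80% had one. All 9 receptors had one. The tallies of alternatives given for the mole count the GC offset, without and with the replicate block.

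Ligands and other receptors were named, from further pathway lists the 3 most abundant genes and those called in both species (the Hox and marker lists are given by counts and sums, with a few genes named beside them), and for each receptor the 3 most alike genes with a mean of at least 10 CPM in both species (pseudocount 0.5). Some genes and 1 sequence that this rule covers are not reported here, though counts, medians and sums over lists include those genes. The receptors and lists were chosen with earlier results of these data known.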

Additional observations from a re-analysis of the deposited data

Results flagged for a closer look

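The change between ganglia differed between the species for 5 receptors by the interaction test in edgeR, with mole TG over DRG compared with mouse libraries labelled TG over DRG. The differences on the log2 scale were -4.52 for Kit, -3.30 for Ret, -2.53 for Gfra2, -1.94 for Gfra3 (± 0.53, adjusted p = 0.0285) and -1.44 for Ngfr. These sizes come from the joint scaling. Taken from the separate fits of each species they were smaller, at -4.05 for Kit, -2.82 for Ret, -2.05 for Gfra2, -1.45 for Gfra3 and -0.98 for Ngfr. For Kit, Ret and Gfra2 every mole TG library lay below every mole DRG library, and every mouse library labelled TG lay above those labelled DRG. The same held for Ngfr, whose changes passed the threshold in neither species alone. For Gfra3 the mouse libraries overlapped. With the mouse labels as they stand, the Gfra3 difference between species passed in 8 of 16 alternatives and that of Ngfr in 9. Those of Kit, Ret and Gfra2 passed in all 16. The mouse labels run against the Hox genes, and these differences rest on them. With the labels exchanged the differences were -3.49 for Kit (edgeR adjusted p = 0.0112) and -2.66 for Ret (0.0213), which passed, and -0.23 for Gfra2 (0.753), -1.62 for Gfra3 (0.0805) and -0.61 for Ngfr (0.295), which did not.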

How the results depend on the processing

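In the mole the count of receptors higher in the DRG, 4 as reported, was 7 with DESeq2, limma-voom or without mole TG 1 and mole DRG 2, and 2 with the library kit as a covariate (all genes higher in the DRG: 15%, 16.4%, 29.9% and 12.5%, against 12.9%), and ranged from 2 to 7 when 1 library was left out. The count higher in the TG was 1 (Ntrk3) with the GC offset and 0 otherwise. In the mouse the count higher in libraries labelled TG, 1 as reported, was 2 with the GC offset and ranged from 0 to 3 when 1 library was left out. The interaction count of 5 was 3 with RLE factors, 3 with the mouse labels exchanged (Kit, Ret and Ntrk2) and ranged from 3 to 7 when 1 library was left out. The Ntrk3 interaction changed sign from -0.40 to 0.069 by a z test of the separate fits, 0.083 with DESeq2, 0.077 with RLE factors 0.039 with at least 10 counts in every library and 0.52 with the mouse labels exchanged, none past the threshold. Fewer libraries lower the power of the leave-one-out fits, and otherwise the cause was not tested.

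Replicate numbers were not taken to pair the mole ganglia. The deviations of same-numbered libraries correlated at 0.244, 0.417 and -0.107, and those of differently numbered libraries at -0.334 to 0.244. With so few libraries these values cannot decide whether the ganglia were paired. With the replicate block 2 mole receptors were higher in the DRG, 1 mouse receptor was higher in libraries labelled TG and the interaction count was 4. Same-numbered mouse libraries deviated in opposite directions (-0.369), and with the crossed block 2 receptors were higher in libraries labelled TG.

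Over all genes, the mole count of 4240 calls ranged from 409 to 7036 when 1 library was left out, and the mouse count of 498 from 37 to 4905. Upper-quartile factors raised the median log2 fold change of all mole genes by 0.14. They changed the sign of no receptor, but Gfra3 no longer passed (-1.18, edgeR adjusted p = 0.0644). The count was 5748 in the mole and 1777 in the mouse with DESeq2. The Kit and Met levels of the mole TG rest on 61 counts or fewer per library, which limits their precision. Levels per kilobase depend on the length used. With the mean length of the transcripts 26 of the 36 levels moved by at least the SD of their group. With the length of the coding part all 36 did.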
